A study of Mus musculus with 6 samples.

Results

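The genes described here are the members of the Wnt signalling pathway that lie at the cell surface, outside the cell or at the pathway's output, in the dorsal skin of mice whose hair follicles (HFs) were regrowing. They were chosen by name alone, as every gene whose symbol starts with Wnt, Fzd, Sfrp or Dkk and a digit, together with Lrp5, Lrp6, Lef1, Tcf7, Axin2, Notum, Wif1, Apcdd1, Sostdc1, Nkd1 and Kremen1. This gave 49 of the 32285 genes counted. The 6 single-cell RNA sequencing libraries came from wildtype FVB males aged p55 to p57 (postnatal days), and each library held the cells of 2 mice, which were dissociated separately and mixed at equal cell numbers. The libraries were taken at 0, 4 and 16 h and at 2, 4 and 6 d after the dorsal hair had been shaved and waxed off (depilation), so that each time point was 1 library and the mice within it could not be separated. After filters, 50502 cells remained, between 6520 and 11032 a library.

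Wnt proteins are secreted lipid-modified ligands that bind Frizzled receptors (Fzd genes) together with the co-receptors Lrp5 and Lrp6, which stabilises beta-catenin and lets it act in the nucleus with DNA-binding partners such as Lef1 and Tcf7. Secreted and membrane inhibitors act at several points: the Sfrp proteins and Wif1 bind the ligands, the Dkk proteins and Sostdc1 bind the co-receptors, Notum removes the lipid from the ligand, and Axin2 and Nkd1 act inside the cell as feedback inhibitors. In skin, Wnt signalling between the dermal papilla (DP) and the epithelium is known for its part in the entry of resting HFs into the growth phase, and autocrine Wnt signalling for its part in the maintenance of basal epidermal cells.

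Because several members are known targets of beta-catenin and its DNA-binding partners, the windows around their transcription starts were searched for the core letters that these partners bind. Windows of 300 bases, from 250 bases before to 50 after a start, were taken from RefSeq (assembly GRCm38.p6) for the 30 members that have one there. The letters searched were CTTTG followed by 2 bases that are each A or T, on either strand. Of the 37 member windows 6 held a match (16.2%), beside 16.9% of all 32851 windows. Members with a match were Fzd7, Lef1, Wnt5b, Wnt11, Wnt3 and Dkk1. The share among members was close to the share over all windows, and a match is a description of the letters, not a bound site. The windows of a receptor of the HF, an epidermal ligand and the feedback inhibitor Axin2 are printed because these genes recur below, with the match in capitals and the rest in lower case.
Fzd7 (chr1:59481897-59482196, plus strand): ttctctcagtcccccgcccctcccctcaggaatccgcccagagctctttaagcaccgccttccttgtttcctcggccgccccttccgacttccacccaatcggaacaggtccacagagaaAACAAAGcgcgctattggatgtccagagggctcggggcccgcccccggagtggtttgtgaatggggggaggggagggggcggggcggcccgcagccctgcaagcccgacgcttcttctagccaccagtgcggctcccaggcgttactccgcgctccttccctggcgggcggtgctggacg
Wnt3 (chr11:103773925-103774224, plus strand): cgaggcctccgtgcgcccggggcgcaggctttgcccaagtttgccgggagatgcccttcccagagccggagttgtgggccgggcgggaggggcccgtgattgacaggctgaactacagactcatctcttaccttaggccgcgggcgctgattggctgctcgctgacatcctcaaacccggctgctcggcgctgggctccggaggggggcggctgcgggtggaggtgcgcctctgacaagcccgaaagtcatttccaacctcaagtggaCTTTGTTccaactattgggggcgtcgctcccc
Axin2 (chr11:108920099-108920398, plus strand): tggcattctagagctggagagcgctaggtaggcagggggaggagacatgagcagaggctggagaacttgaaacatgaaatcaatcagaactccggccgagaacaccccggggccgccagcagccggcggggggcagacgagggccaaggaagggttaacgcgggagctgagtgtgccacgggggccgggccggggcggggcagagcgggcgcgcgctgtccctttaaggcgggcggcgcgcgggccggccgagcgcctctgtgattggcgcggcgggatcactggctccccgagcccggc
In Fzd7 the match was AACAAAG, 130 bases before the start, and in Wnt3 it was CTTTGTT, 18 bases after it. The Axin2 window held none of these letters, which says nothing about the rest of the gene.

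Levels are given as CPM, the unique molecular identifiers (UMIs) of a gene per 1000000 UMIs of a cell type in a library, with exact Poisson 95% intervals where an interval is printed. These intervals cover counting error only. Values of the libraries are given in the order of time, first those up to 16 h and then those from 2 d. Since the kit reads the 3′ ends of transcripts, levels are compared between cell types and libraries but not between genes. Cells were grouped into 16 types from marker genes that included no member, and the members were kept out of the clustering. Each name stands for a class of cells that resembles that type. The types were the basal and suprabasal layers of the interfollicular epidermis (IFE.B and IFE.SB) and of the upper HF (uHF.B and uHF.SB), 3 outer bulge classes (OB1, OB2 and OB3), the inner bulge (IB), 3 inner root sheath classes (IRS1, IRS2 and IRS3), the sebaceous gland (SG), melanocytes, T cells, Langerhans cells, and a small class of DP and fibroblasts. All 8 IFE.B markers were highest in IFE.B, but only 1 of the 8 uHF.B markers was highest in uHF.B, 2 of the 8 uHF.SB markers in uHF.SB, 2 of 10 OB1 markers in OB1 and 3 of 8 IRS2 markers in IRS2, so these names are less firm. The libraries held 72634390 to 112370376 UMIs, with a median of 5857.5 to 10351 per barcode, and any pair of libraries shared 7 to 47 barcodes. T cells, which are not epithelial, give a view of the level that free RNA can add to a cell that does not make a gene.

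**Figure D1:**
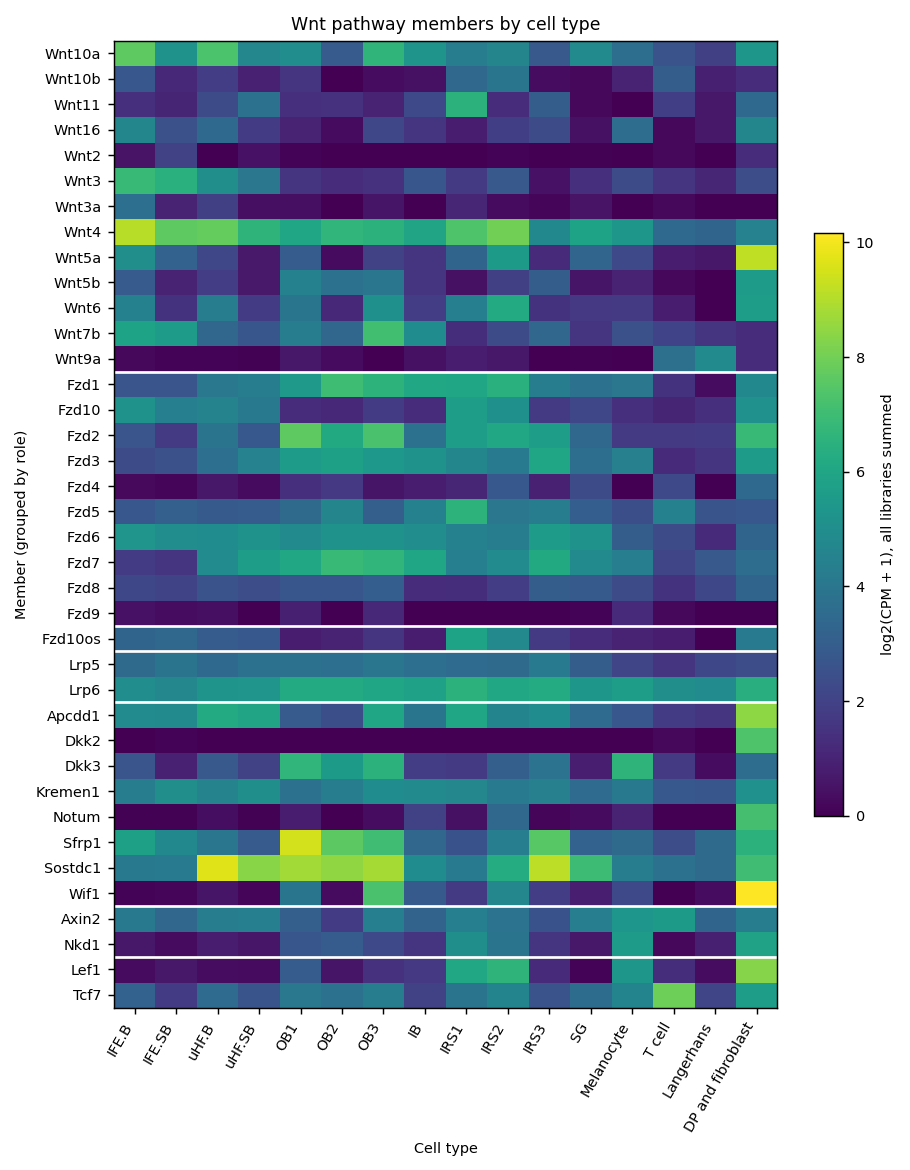
Levels of the 38 members with at least 100 UMIs (rows, grouped by role with white lines between ligands, receptors, the Fzd10 antisense gene, co-receptors, inhibitors, cytoplasmic feedback genes and nuclear factors) in the 16 cell types (columns), as log2(CPM + 1) with all 6 libraries summed. Wnt4, Wnt3 and Wnt10a are brightest in IFE.B, Sostdc1 in uHF.B, Sfrp1 and Fzd2 in OB1, and Wif1, Wnt5a, Lef1, Apcdd1, Dkk2 and Notum in DP and fibroblasts.

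Of the 49 members, 38 had at least 100 UMIs over all analysed cells and 11 did not. Together they held 490184 of 442237510 UMIs. The 38 were spread over many types: 12 were highest in DP and fibroblasts, 5 in IRS1, 4 in IFE.B, 3 each in IRS3 and OB1, 2 each in OB2, IRS2 and T cells, and 1 each in IFE.SB, Langerhans cells, melanocytes, OB3 and uHF.B. The other 11 are given by their totals, with 0 UMIs for Dkk1, 2 for Wnt1, 3 for Wnt8b, 4 for Dkk4, 9 for Sfrp4, 12 for Wnt2b, 14 each for Wnt8a and Sfrp5, 34 for Sfrp2, 44 for Wnt9b and 69 for Wnt7a.

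Among the 19 ligand genes, 13 were past 100 UMIs, and the basal epidermis held the highest level of 4 of them, Wnt4, Wnt10a, Wnt3 and Wnt3a. Wnt4 (chr4:137277489-137299726, plus strand) had 123866 UMIs in all, of which 80002 were in IFE.B. Its level in IFE.B was 269.6, 689.7 and 662 CPM up to 16 h and 484, 612 and 484 CPM from 2 d. The 0 h library was the lowest of the 6 and the 4 h and 16 h libraries were the highest. Over all libraries Wnt4 stood at 543 CPM in IFE.B, 253 in IRS2, 219 in uHF.B and 202 in IFE.SB, against 10.2 in T cells. Wnt3 (chr11:103774150-103817957, plus strand) in IFE.B was 116, 102 and 112 CPM up to 16 h and 129, 138 and 119 CPM from 2 d, a narrow range for 6 libraries at different times. Its level was lower outside the epidermis, from 117 CPM in IFE.B and 86.5 in IFE.SB to 31.9 in uHF.B and 1.97 in T cells.

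Wnt10a (chr1:74791516-74804179, plus strand), a ligand known for ectodermal appendages, stood at 143, 258 and 212 CPM up to 16 h and 161, 256 and 176 CPM from 2 d in IFE.B. The ranges of Wnt10a over libraries overlapped between IFE.B (143 to 258 CPM) and uHF.B (105 to 231), and OB3 (64.8 to 128) reached into the uHF.B range. T cells held 5.01 CPM. Wnt3a stood at 7.19, 13.9 and 15.2 CPM up to 16 h and 11.3, 15.3 and 8.43 CPM from 2 d in IFE.B, and 1784 of its 2065 UMIs lay there. Wnt16 was near its highest level in IFE.B, at 37.5, 12.3 and 18.2 CPM up to 16 h and 13.9, 31.97 and 50.5 CPM from 2 d. In DP and fibroblasts, where its summed level was nominally highest, Wnt16 had 17 UMIs, at 43.1, 21.6 and 21.5 CPM up to 16 h and 0, 25.8 and 20.7 CPM from 2 d. Wnt2 was highest in IFE.SB, at 2.803, 0.532 and 3.44 CPM up to 16 h and 4.17, 2.62 and 4.199 CPM from 2 d, which is 317 of its 408 UMIs. Wnt7b was the ligand with its highest level in OB3, at 129.9, 102 and 109 CPM up to 16 h and 116, 184 and 137 CPM from 2 d. IFE.B and IFE.SB held less Wnt7b, 43.9 to 77.2 CPM and 25.6 to 86.6 CPM over their libraries, and neither range reached the lowest OB3 library.

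The other ligands were highest outside the basal epidermis. Wnt5a (chr14:28504750-28527448, plus strand), the best known ligand of the beta-catenin-independent branch, had its highest level in DP and fibroblasts, at 582 CPM over all libraries. In that class it was 0, 43.2 and 43.01 CPM up to 16 h and 170.0, 803 and 529 CPM from 2 d, but only the 4 d and 6 d libraries held 20 or more of these cells (118 and 23). The other 4 libraries held 18, 17, 14 and 7. IRS2 had 46.1 CPM of Wnt5a and IFE.B 31.8. Wnt5b, its close relative, was also highest in DP and fibroblasts, at 0, 0 and 0 CPM up to 16 h and 0, 65.8 and 41.5 CPM from 2 d, from 32 UMIs. In OB1, Wnt5b ranged from 10.6 to 32.6 CPM.

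Wnt11, another ligand of the beta-catenin-independent branch, was highest in IRS1, a class with 0 cells before 2 d. It stood there at 0, 92.6 and 93.1 CPM from 2 d, where the 2 d value rests on 6 cells. The next type, uHF.SB, had 12.7 CPM. Wnt6 was highest in IRS2, at 38.97, 0 and 40.2 CPM up to 16 h and 11.6, 78.3 and 58 CPM from 2 d, of which the first 3 values come from 8, 2 and 8 cells. Wnt10b, also highest in IRS2, stood at 38.97, 82.7 and 10.05 CPM up to 16 h and 9.67, 12.5 and 27.6 CPM from 2 d. In libraries with 20 or more IRS2 cells the 2 ranged from 11.6 to 78.3 CPM for Wnt6 and 9.67 to 27.6 CPM for Wnt10b. Wnt9a was found mostly in immune cells, at 10.1, 26.7 and 33.5 CPM up to 16 h and 21.5, 24.8 and 39.6 CPM from 2 d in Langerhans cells and 12.6 CPM over all libraries in T cells.

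The 10 Frizzled receptor genes were all past 100 UMIs, and 3 of them (Fzd1, Fzd2 and Fzd7) were highest in an OB class. Fzd2 (chr11:102604396-102608058, plus strand) in OB1 was 235, 146 and 151 CPM up to 16 h and 122, 199.8 and 262 CPM from 2 d. OB3 followed with 153 CPM over all libraries and the Fzd2 ranges of OB1 (122 to 262) and OB3 (79.8 to 222) overlapped. T cells held 2.28 CPM. Fzd1 (chr5:4753839-4758035, minus strand) was highest in OB2, at 171, 67.6 and 97.6 CPM up to 16 h and 141, 189 and 129 CPM from 2 d, and Fzd1 in OB3 ranged from 40.1 to 109 CPM. Fzd7 (chr1:59482424-59486955, plus strand) was also highest in OB2, at 78.1, 41.4 and 102 CPM up to 16 h and 144, 178 and 138 CPM from 2 d. Its OB2 range of 41.4 to 178 CPM overlapped that of OB3, 30.8 to 167 CPM. Both Fzd1 and Fzd7 were lowest at 4 h in OB2, as was Fzd7 in OB1. Fzd3 was highest in IRS3, at 50.7, 67.7 and 59.95 CPM from 2 d in the libraries with 20 or more of these cells, and its level in OB2 ranged from 30.5 to 78.1 CPM.

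The remaining receptors had other patterns. Fzd5 was highest in IRS1, at 103 and 68.8 CPM in the last 2 libraries, above the 23.8 CPM of OB2, the next type. Fzd10 was highest in IRS1 too, at 45.6 and 66.8 CPM in the last 2 libraries, and stood in IFE.B at 35.1, 43.8 and 42.3 CPM up to 16 h and 24.5, 39.02 and 28.9 CPM from 2 d. Fzd10os, a gene named as the opposite strand of Fzd10, lies at chr5:128579106-128600693, minus strand, and ends before Fzd10 (chr5:128600844-128604093, plus strand) begins, so the annotated genes do not overlap. It was also highest in IRS1, at 60.95 and 54.6 CPM in the last 2 libraries. Fzd6 had its highest level in IRS3, at 26.4, 44.4 and 53.2 CPM from 2 d, and 34.03 to 48.2 CPM over the IFE.B libraries. Fzd8 was highest in DP and fibroblasts, at 7.05 and 20.7 CPM in the last 2 libraries, from 6 UMIs. Fzd4 was highest there too, at 9.396 and 10.4 CPM in the last 2 libraries, from 7 UMIs. Fzd9 had 141 UMIs in all, and its highest type, melanocytes, held 4 of them, at 0, 12.3 and 0 CPM up to 16 h and 0, 1.17 and 0 CPM from 2 d.

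Both co-receptors were found in every type. Lrp6 (chr6:134446476-134566965, minus strand) was highest in IRS1, at 90.2 and 101 CPM in the last 2 libraries, but the range over IRS3 libraries, 46.3 to 80.5 CPM, and OB1 libraries, 49.3 to 87.6 CPM, lay just below it. T cells had 31.3 CPM of Lrp6. Lrp5 was highest in IRS3, at 8.81, 19.1 and 14.9 CPM from 2 d, and its neighbours OB3 (5.202 to 21.2 CPM) and IFE.SB (11.2 to 16.9 CPM) overlapped that range.

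Of the 13 inhibitor genes, 8 were past 100 UMIs and these differed in the type that held them. Sostdc1 (chr12:36314139-36318452, plus strand), an antagonist of both Wnt and BMP signals, was highest in uHF.B, at 962, 107 and 663 CPM up to 16 h and 859.9, 1147 and 979 CPM from 2 d. The 4 h library was far below the other 5. Over all libraries Sostdc1 stood at 827 CPM in uHF.B, 567 in IRS3, 450.2 in OB3, 429 in OB1 and 355 in OB2, against 13.1 in T cells. The ranges of the 3 OB classes overlapped one another. Sfrp1 (chr8:23411502-23449632, plus strand) was highest in OB1, at 399, 108 and 167 CPM up to 16 h and 482, 727 and 1308 CPM from 2 d. The 4 h and 16 h libraries were lowest and the 6 d library highest. Sfrp1 stood at 706 CPM in OB1, 196 in OB2, 185 in IRS3 and 133 in OB3, against 4.25 in T cells.

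Dkk3, a divergent Dickkopf whose action on Wnt signals is less clear than that of its relatives, was highest in OB1, at 299, 96.9 and 104 CPM up to 16 h and 68.5, 64.1 and 119 CPM from 2 d. The 0 h library was the highest of the 6 and the 4 d library the lowest. Its ranges overlapped between OB1 (64.1 to 299 CPM), melanocytes (59.6 to 185) and OB3 (33.9 to 123). Kremen1, a receptor of Dkk proteins, was spread over types, at 32.9 and 51.8 CPM in the last 2 libraries in DP and fibroblasts and 18.3 to 42.5 CPM over the uHF.SB libraries.

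Wif1, Apcdd1, Dkk2 and Notum were highest in DP and fibroblasts. Wif1 (chr10:121033960-121100650, plus strand) stood there at 194, 129 and 151 CPM up to 16 h and 67.99, 1083 and 3225 CPM from 2 d, and the 6 d library was the highest. OB3 had 150.1 CPM of Wif1, and IRS2 25.3, OB1 14.7 and T cells 0. Apcdd1, a membrane inhibitor, was 194, 108 and 516 CPM up to 16 h and 170.0, 383 and 321 CPM from 2 d in DP and fibroblasts and 89.3, 7.89 and 89.9 CPM up to 16 h and 79.6, 77.3 and 69.4 CPM from 2 d in uHF.B. In uHF.B the 4 h library was again the lowest. Dkk2 (chr3:132085292-132180304, plus strand) was 1098, 453 and 473 CPM up to 16 h and 34, 30.5 and 51.8 CPM from 2 d, and 113 of its 131 UMIs were in this class. Notum (chr11:120653788-120661175, minus strand) was 474, 173 and 452 CPM up to 16 h and 67.99, 93.96 and 62.2 CPM from 2 d there, with IRS2 next at 9.74 CPM.

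The DP and fibroblast class differed in make-up between libraries, which touches all 12 members highest in it. Of its 10 markers, 8 were highest in this class. The DP marker Corin stood at 0, 21.6 and 0 CPM up to 16 h and 34, 608 and 467 CPM from 2 d, and the summed level of 6 endothelial markers in the same cells at 0, 1597 and 3225 CPM up to 16 h and 2516, 56.4 and 31.1 CPM from 2 d. The libraries at 4 h, 16 h and 2 d, with 17, 14 and 7 cells, thus held more endothelial transcripts, and those at 4 d and 6 d more of Corin. The 0 h library held neither. Crabp1, another of the 10 markers, did not follow Corin, at 775, 561 and 258 CPM up to 16 h and 34, 566 and 664 CPM from 2 d. The summed level of the 10 markers was 11754, 10940 and 8150 CPM up to 16 h and 5372, 10592 and 7922 CPM from 2 d. Vim made up most of that sum, at 6661 CPM over all libraries, and it stood at 5216 CPM in T cells and 10898 CPM in Langerhans cells. The sum therefore says little about the other markers or about how far the early cells resemble the later ones. Whether the changes of Wif1, Wnt5a, Dkk2 and Notum between libraries follow these differences in make-up was not tested, and too few cells were present for a test over time.

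Axin2, a negative regulator and textbook target of the pathway, was highest in T cells, at 64.9, 44.5 and 27.9 CPM up to 16 h and 69.99, 12.7 and 73.5 CPM from 2 d. In melanocytes it stood at 34.3, 36.9 and 42.4 CPM up to 16 h and 29.8, 43.7 and 34.8 CPM from 2 d. These 2 ranges overlapped. Nkd1 was highest in DP and fibroblasts, at 70.5 and 31.1 CPM in the last 2 libraries, and in melanocytes it was 22.9, 24.6 and 4.71 CPM up to 16 h and 27.1, 48.96 and 95.1 CPM from 2 d. Lef1 (chr3:131110471-131224356, plus strand), known as the partner of beta-catenin in DP and hair precursor cells, was 279.8, 21.6 and 172 CPM up to 16 h and 136, 357 and 435 CPM from 2 d in DP and fibroblasts. IRS2 had 98.3 CPM of Lef1, IRS1 67.2, melanocytes 40.6 and OB1 6.82, against 1.52 in T cells. Tcf7, known for its role in T cell development, was 154, 415 and 322 CPM up to 16 h and 233, 204 and 163 CPM from 2 d in T cells, and its level in melanocytes (22.8 CPM) and OB3 (18.5) was under the lowest T cell library.

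To ask how the members differ between compartments, UMIs were summed per cell type and library and compared with edgeR, with the library as a block. In OB1 against IFE.B the ligands were mostly lower and the Frizzled receptors and inhibitors mostly higher in OB1. Of 36 members tested 29 passed, 15 higher in OB1 (17.4% of all 13287 genes tested were higher) and 14 lower (17.8% of all genes were lower). Other genes were used to cluster the cells, so the share of genes that pass is high by construction. Ligands were lower in 9 of 12 and higher in 1, receptors higher in 6 of 10 and lower in 2, and inhibitors higher in 5 of 7 and lower in 1. The median log2 difference was 0.23 over the members and -0.04 over all genes tested.

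The receptor Fzd2 differed by a log2 of 4.83 (SE 0.38, adjusted p = 2.90e-05) and Fzd7 by 4.10 (SE 0.19, adjusted p = 2.63e-06). Fzd3, Fzd1, Fzd4 and Fzd5 were also higher in OB1, at log2 values of 3.39, 2.68, 2.66 and 0.75, whereas Fzd10 was lower, at -5.00 (SE 0.31, adjusted p = 7.69e-06), together with Fzd10os at -4.37 and Fzd6 at -0.85. Among the inhibitors Wif1 was higher by 7.50 (SE 0.65, adjusted p = 5.00e-05), with 416 UMIs in OB1 and 12 in IFE.B. Dkk3 (4.16), Notum (3.98), Sostdc1 (3.91) and Sfrp1 (2.53) were higher on the same log2 scale and Apcdd1 (-2.33) was lower. Notum had 21 UMIs in OB1 and 8 in IFE.B.

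Among the ligands Wnt3 had the largest difference, at a log2 of -6.20 (SE 0.43, adjusted p = 1.74e-05), followed by Wnt3a (-5.50), Wnt16 (-5.16), Wnt5a (-3.29) and Wnt4, at -3.20 (SE 0.23, adjusted p = 1.84e-05). Wnt10a (-2.88), Wnt7b (-2.34) and Wnt6 (-1.40) were lower as well, and Wnt5b was higher, at 1.58 (SE 0.31, adjusted p = 0.00464). Wnt2 had 2 UMIs in OB1, and its level in IFE.B was 6.44 (95% interval 1.71 to 54.3) times that in OB1, by counting error alone. Lef1 was higher in OB1 by a log2 of 4.76 (SE 0.84, adjusted p = 0.00264), as were Nkd1 (3.37) and Lrp6 (0.80), and Axin2 was lower, at -1.22 (SE 0.28, adjusted p = 0.00831). The 7 members that did not pass were Fzd8, Fzd9, Kremen1, Lrp5, Tcf7, Wnt10b and Wnt11.

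In uHF.B against IFE.B, 22 of 32 members passed, 8 higher in uHF.B (16.1% of all 12613 genes tested were higher) and 14 lower (19.7% of all genes). The uHF.B name has weak support. In the skin clustering 4 of its 8 markers were raised, with a mean log2 of 0.044. Another marker list had a higher mean there but too few raised markers to give the name. When follicle cells were clustered again, clusters of 2031 and 2025 cells matched no marker list. Upper HF cells in them kept their first name. Without the library block 11 members passed, beside 9.30% of all genes. Of 12 ligands 10 were lower and 1 was higher, and of 9 receptors 4 were higher and 2 lower. The median log2 difference was -0.08 over the members and -0.01 over all genes. Sostdc1 had the largest value, a log2 of 5.37 (SE 0.16, adjusted p = 4.62e-08), and its IFE.B level was 15.7, 1.81 and 17.1 CPM up to 16 h and 21.4, 27.2 and 29.2 CPM from 2 d, so that every uHF.B library was above every IFE.B library. Fzd7 was higher by 3.26 (SE 0.23, adjusted p = 1.08e-05), and Fzd3 (1.42), Fzd1 (1.35), Apcdd1 (1.27), Wnt11 (1.17), Fzd2 (1.08) and Lrp6 (0.22) by less.

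The lower members of uHF.B included Wnt5a, at a log2 of -3.35 (SE 0.14, adjusted p = 2.06e-07), Wnt7b, at -2.87 (SE 0.16, adjusted p = 1.76e-06), and Sfrp1, at -2.12 (SE 0.17, adjusted p = 1.34e-05). Wnt3a (-2.22), Wnt3 (-1.98), Wnt16 (-1.58), Wnt4 (-1.37), Wnt10b (-1.33), Wnt5b (-0.99) and Wnt10a (-0.44) were lower too, as were Fzd10 (-0.74), Fzd10os (-0.60) and Fzd6 (-0.50). Wnt2 had 1 UMI in uHF.B, and its level in IFE.B was 21.9 (95% interval 3.799 to 878) times as high. Sfrp1 thus went in opposite directions in the 2 comparisons with IFE.B, higher in OB1 and lower in uHF.B, and Apcdd1 did the reverse.

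In OB2 against OB1, 13 of 26 members passed, 5 higher in OB2 (10.2% of all 10216 genes tested were higher) and 8 lower (12.9% of all genes). Without the library block 5 members passed, beside 5.22% of all genes. The receptors split: Fzd1, at a log2 of 1.73 (SE 0.14, adjusted p = 5.17e-07), Fzd5 (1.17), Fzd7 (1.05) and Fzd6 (0.50) were higher in OB2, and Fzd2 was lower, at -1.25 (SE 0.16, adjusted p = 5.34e-05). Sfrp1 was lower in OB2, at -1.35 (SE 0.17, adjusted p = 3.75e-05), and so were Wnt10a (-2.32), Wnt6 (-3.06) and Axin2 (-1.72). Wnt4 was higher in OB2 (0.68). Lef1, Wif1 and Wnt5a had 2, 1 and 1 UMIs in OB2, respectively, and were higher in OB1 by ratios of 14.03 (95% interval 3.83 to 117), 60.5 (95% interval 10.8 to 2394) and 28.2 (95% interval 5.002 to 1119). Sostdc1 did not pass, with a log2 difference of 0.01 (SE 0.19, adjusted p = 0.98). The median log2 difference was -0.23 over the members and -0.03 over all genes.

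**Figure D2:**
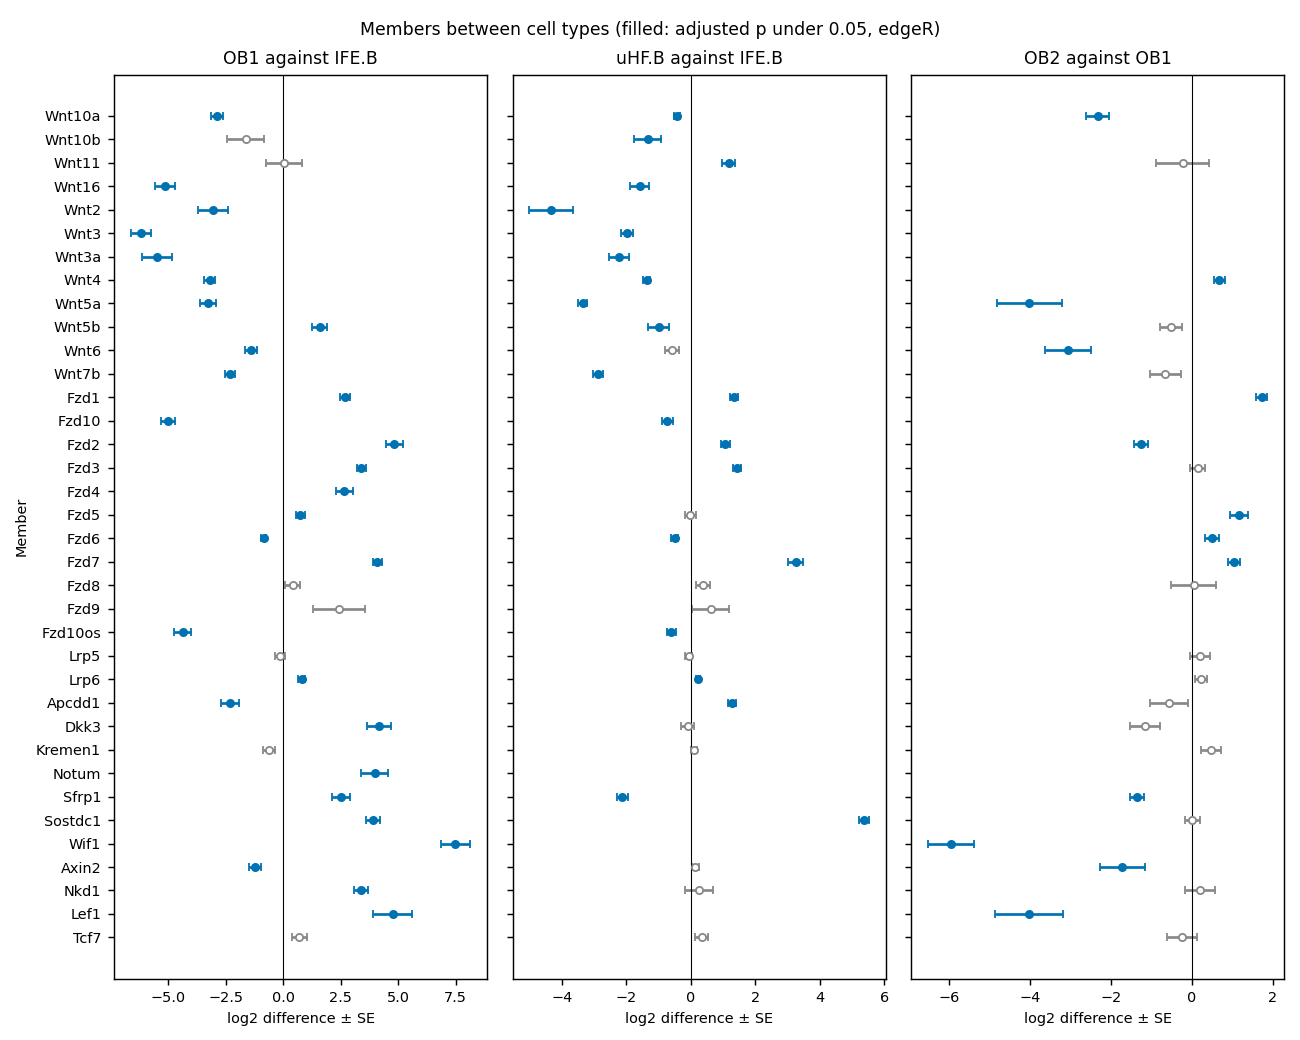
Log2 differences (x axis, with the SE derived from the F statistic as bars) of each tested member (y axis) in 3 comparisons of cell types over the 6 libraries, OB1 against IFE.B, uHF.B against IFE.B and OB2 against OB1. Filled points passed an adjusted p of 0.05 and open points did not. Most Wnt ligands lie left of 0 in the first and second panels, and Fzd7 and Sostdc1 lie right of 0 in both.

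To ask which members changed over the days after depilation, each cell type was fitted over the 6 time points with a curve of hours with 3 degrees of freedom, which leaves 2 for the spread between libraries. No member passed in OB1 (0 of 28, beside 0.00912% of all 10965 genes), in uHF.B (0 of 29, beside 0% of all 11629 genes) or in IFE.B (0 of 33, beside 0% of all 12929 genes) with edgeR. At an unadjusted p under 0.05 there were 7 members in OB1, beside 1057 of all genes, and 0 in uHF.B and IFE.B, beside 243 and 73 of all genes. DESeq2 called 2 members in OB1 (Lef1 and Wnt11), beside 4.18% of all genes, and 0 in uHF.B and IFE.B. Leaving out the 0 h library gave 12 members in OB1, beside 19.8% of all genes, and 3 in uHF.B, beside 7.47%. Leaving out the 4 h library gave 8 in OB1, beside 8.91%. Fits without 1 library, here and on the other axis below, kept the 3 degrees of freedom of the curve. They thus left fewer than 2 for the spread, so their counts are weakly founded. The result also depended on the time axis, which spaces the early libraries closely. With log2(hours + 1) as the axis, an alternative fitted beside the axis in hours, 10 of 28 members passed in OB1, beside 16.0% of all genes tested. These were Sfrp1 (adjusted p = 0.000564), Lef1 (0.00124), Sostdc1 (0.00127), Wnt11 (0.00476), Wnt5a (0.0071), Dkk3 (0.00869), Wnt7b (0.0149), Wnt10b (0.0213), Fzd3 (0.0307) and Wnt10a (0.0334). The count was 6 without the 2 d library and 19 without the 6 d library, beside 10.2% and 31.1% of all genes.

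On the same axis fewer members passed elsewhere. In OB2 they were Sfrp1 and Sostdc1 (2 of 14, beside 3.81% of all genes), and in OB3 Sostdc1, Sfrp1, Wnt6, Dkk3 and Wif1 (5 of 19, beside 9.12%). In IB they were Wnt10a, Fzd1, Fzd7 and Fzd3 (4 of 12, beside 11.9%), and in melanocytes Nkd1 and Wnt16 (2 of 8, beside 5.35%). None of the 33 members in IFE.B or 29 in uHF.B passed, with 5 and 10 at an unadjusted p under 0.05, beside 1154 of all 12929 and 2352 of all 11629 genes.

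Sfrp1 and Sostdc1 passed on the log2 axis in all 3 OB classes. The 3 classes come from the same 6 libraries, so these results are not independent of one another. Sfrp1 in OB2 was 97.6, 39.2 and 84.3 CPM up to 16 h and 287, 242 and 349.5 CPM from 2 d and in OB3 15.5, 27.8 and 24.3 CPM up to 16 h and 123, 160.3 and 216 CPM from 2 d. In each OB class every library from 2 d on was above every earlier one. Sostdc1 was 456, 58.6 and 126 CPM up to 16 h and 315, 476 and 667 CPM from 2 d in OB1, 244, 43.6 and 207 CPM up to 16 h and 272, 634 and 559 CPM from 2 d in OB2 and 278, 33.9 and 144 CPM up to 16 h and 349, 734 and 569 CPM from 2 d in OB3. The 4 h library was the lowest in each class. The 0 h library lay among the later ones in OB1, and in OB2 and OB3 it was above the other early libraries and below all later ones.

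When the 3 libraries from 2 d on were compared with the 3 earlier ones in OB1, 1 of 26 members passed, Wnt5a, which rose by a log2 of 2.90 (SE 0.49, adjusted p = 0.0177), beside 2.47% of all 10533 genes tested that were higher. In either direction 3.66% of all genes passed, so 1 member of 26 is near the share of all genes. The Wnt5a level was 1.06, 0.4403 and 1.33 CPM up to 16 h and 6.41, 10.5 and 8.09 CPM from 2 d, from 2, 1, 5, 16, 112 and 58 UMIs in that order, so the early values rest on few molecules. The call was lost without the 4 d library (adjusted p = 0.118) or the 6 d library (0.0639), and 3 members passed without the 0 h library (Sfrp1, Sostdc1 and Wnt5a), beside 7.98% of all genes. Sfrp1 had a log2 difference of 1.70 (SE 0.55, adjusted p = 0.132) and did not pass, and Sostdc1 one of 0.98 (SE 0.67, adjusted p = 0.496). The median log2 difference was -0.04 over the members and -0.01 over all genes. In OB3 the 1 member of 16 that passed was Sfrp1, which rose by a log2 of 2.78 (SE 0.36, adjusted p = 0.0135), beside 0.223% of all genes that were higher. In melanocytes the 1 member of 4 was Lef1, which rose by 2.59 (SE 0.65, adjusted p = 0.0311), beside 2.01% of all genes. Lef1 in melanocytes was 0, 18.5 and 4.71 CPM up to 16 h and 40.6, 40.8 and 74.2 CPM from 2 d, where all 3 late libraries were above all 3 early ones. The melanocytes of the early libraries held 87505, 162470 and 212289 UMIs of all genes, so these early Lef1 values rest on few molecules. Median UMIs per melanocyte were 2340, 1811 and 1925 up to 16 h and 5087, 4665 and 3712 from 2 d.

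**Figure D3:**
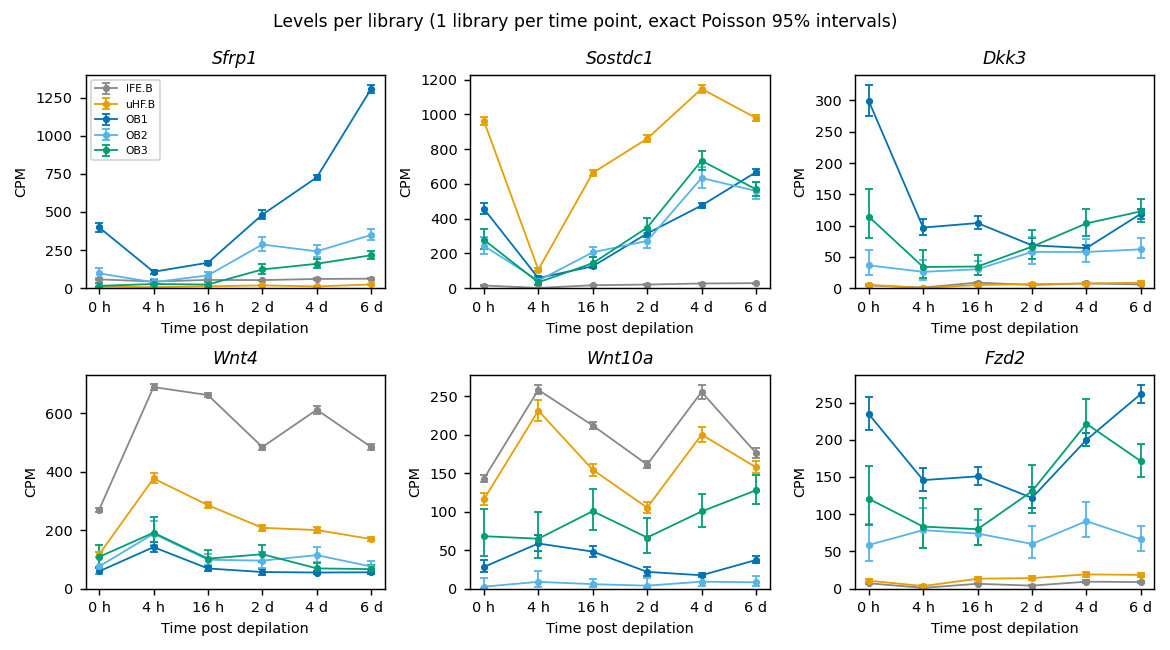
CPM (y axis, starting at 0) of Sfrp1, Sostdc1, Dkk3, Wnt4, Wnt10a and Fzd2 in IFE.B, uHF.B, OB1, OB2 and OB3 (colours) at each time point (x axis, evenly spaced and so not to scale in hours), with exact Poisson 95% intervals. Each point is 1 library. Sostdc1 is low at 4 h in every type shown, and Sfrp1 in OB1 is highest at 6 d, at 1308 CPM.

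The other members of the 10 had no common direction. Lef1 in OB1 was 14.3, 6.61 and 17.8 CPM up to 16 h and 16.03, 3.27 and 1.26 CPM from 2 d, with the 4 d and 6 d libraries below all others. Wnt10a in OB1 was 28.1, 58.6 and 48.05 CPM up to 16 h and 21.6, 17.3 and 37.1 CPM from 2 d, Wnt7b 6.37, 6.61 and 15.9 CPM up to 16 h and 30.1, 25.1 and 11.6 CPM from 2 d and Fzd3 114, 33.03 and 44.9 CPM up to 16 h and 53.3, 35.1 and 47.98 CPM from 2 d. Wnt7b was highest at 2 d and 4 d, whereas Fzd3 was highest at 0 h. Wnt10b and Wnt11 rest on few molecules, with 2, 9, 21, 9, 10 and 2 and 17, 12, 3, 1, 3 and 8 UMIs in the order of the time points.

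OB1 was made of 3 clusters, named here by their leading genes Krt24, Col14a1 and Cpa4, and their shares changed with time. Their marker support differed. In the Krt24 cluster 8 of the 10 OB1 markers were raised, with a mean log2 of 2.49 against the other follicle clusters. The Col14a1 cluster, the largest with 2547 cells, had 5 raised and a mean of 0.44, and the Cpa4 cluster 5 and 0.32. OB1 is thus a mixed class, and most firmly bulge-like in the Krt24 cluster. In the skin clustering the OB name held 2920 cells, fewer than the 4528 cells of OB1, so many OB1 cells first carried another name. A cluster of 4019 cells was named IRS1 there, whereas IRS1 held 299 cells after follicle cells were clustered again. First names were not counted for each OB1 cluster. The Krt24 cluster held 281, 171, 225, 107, 256 and 403 cells in the order of the time points, the Col14a1 cluster 41, 71, 143, 183, 1393 and 716, and the Cpa4 cluster 2, 252, 139, 8, 14 and 123. Sfrp1 in the Krt24 cluster alone was 463, 154 and 316 CPM up to 16 h and 989, 1058 and 1779.8 CPM from 2 d, and in the Col14a1 cluster 74.4, 52.3 and 72.7 CPM up to 16 h and 329, 689 and 1148 CPM from 2 d, so the late libraries were above the early ones within each, and Sfrp1 passed the late against early test when either cluster was fitted alone. Wnt5a fell under the count filter in the Krt24 cluster, and in the Col14a1 cluster its late against early difference did not pass (adjusted p = 0.115). Up to 2 d Lef1 was higher in the Col14a1 cluster than in the Krt24 cluster, but at 4 d it was higher in the Krt24 cluster. At 6 d it was low in both. It stood at 67.6, 27.3 and 47.7 CPM up to 16 h and 20.1, 2.81 and 1.53 CPM from 2 d in the Col14a1 cluster. In the Krt24 cluster it was 4.44, 2.22 and 3.29 CPM up to 16 h and 5.33, 7.397 and 1.03 CPM from 2 d. Wif1 in the Col14a1 cluster was 54.1, 72.8 and 64.9 CPM up to 16 h and 40.1, 4.898 and 7.43 CPM from 2 d, lowest at 4 d and 6 d. In the Krt24 cluster Wif1 was 16.5, 6.66 and 4.603 CPM up to 16 h and 30.2, 28.7 and 19.5 CPM from 2 d, with all 3 late libraries above all 3 early ones. Dkk3 in the Krt24 cluster was 343, 215 and 206 CPM up to 16 h and 151, 197 and 215 CPM from 2 d, a narrower range than the 64.1 to 299 CPM of OB1 as a whole. Beside this, the summed level of the 8 IRS2 markers in OB1 was 80.7, 82.8 and 104 CPM up to 16 h and 382, 362 and 235 CPM from 2 d, higher from 2 d on. Its part in these values was not tested.

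**Figure D4:**
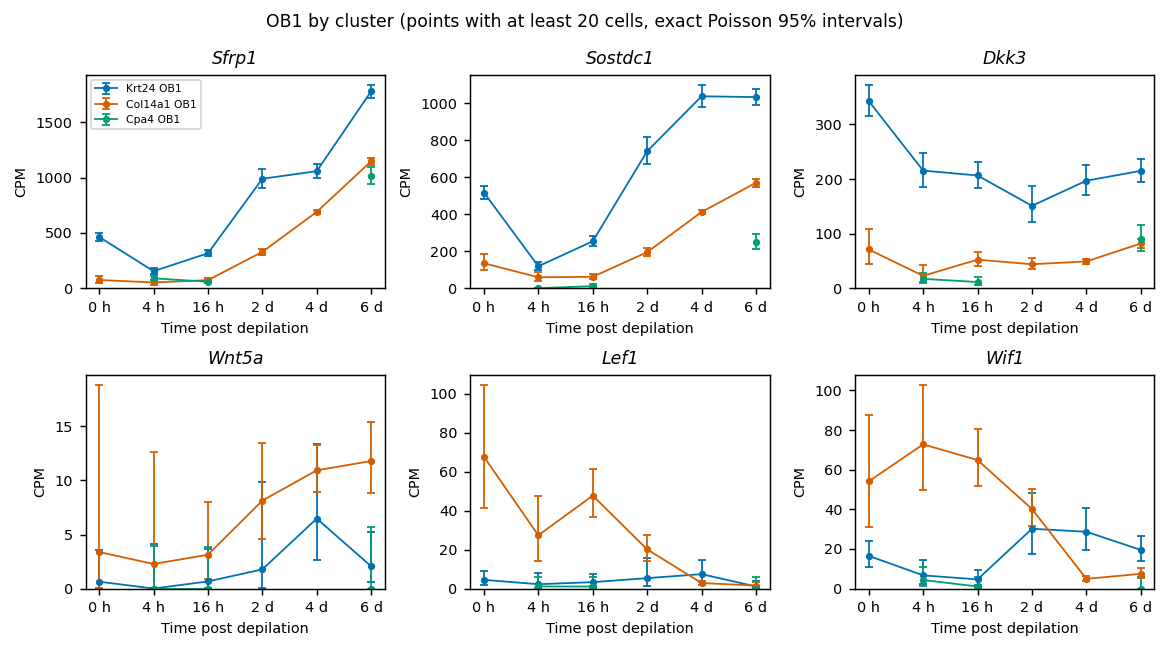
CPM (y axis, starting at 0) of Sfrp1, Sostdc1, Dkk3, Wnt5a, Lef1 and Wif1 in the 3 clusters of OB1 (colours, named by Krt24, Col14a1 and Cpa4) at each time point (x axis, evenly spaced), with exact Poisson 95% intervals and only points with 20 or more cells. Sfrp1 rises toward 6 d in both larger clusters, and Lef1 and Wif1 are higher at 0 h to 2 d than at 4 d and 6 d in the Col14a1 cluster, whereas Wif1 in the Krt24 cluster is higher from 2 d on.

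The 4 h library stood apart for many genes. In IFE.B, 9 of 29 members with enough counts were at or under 50% of their level in every other library, beside 13.8% of all genes. These were Apcdd1, Dkk3, Fzd10os, Fzd2, Sostdc1, Wnt10b, Wnt11, Wnt5a and Wnt6. The same held for 8 of 29 members in uHF.B (12.4% of all genes), 5 of 25 in OB1 (11.0%), 2 of 10 in OB2 (6.73%) and 6 of 16 in OB3 (9.38%), and Sostdc1 was among them in each type. Apcdd1 in IFE.B was 53.1, 2.47 and 39.97 CPM up to 16 h and 26.1, 22.9 and 26.2 CPM from 2 d. In the other direction Wnt4 in OB1, at 58.9, 142 and 68.8 CPM up to 16 h and 56.5, 54.8 and 55.6 CPM from 2 d, Tcf7 in uHF.B and Wnt5b in IFE.B were at least 2 times as high at 4 h as in any other library. That was 1 of 25 members in OB1 (beside 1.75% of all genes), 1 of 29 in uHF.B (3.92%) and 1 of 29 in IFE.B (6.27%). With 1 library at 4 h, the time and the library cannot be told apart.

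Beside the members, 59 other genes of the pathway were read from a list of transducers, R-spondin receptors and polarity genes. In OB1 against IFE.B 22 of 49 tested passed, 13 higher (beside 17.4% of all genes) and 9 lower (beside 17.8%). Lgr5, an R-spondin receptor that is also among the markers used to name OB cells, had a log2 difference of 8.29, Ror2 6.04, the repressor Tcf7l1 5.38, Prickle2 2.64, Tle2 2.56, Prickle1 -3.21, Tnfrsf19 -3.63 and the ligand Rspo3 -6.78. In uHF.B against IFE.B 21 of 49 passed, 10 higher (beside 16.1% of all genes) and 11 lower (beside 19.7%), with Nkd2 at 2.88 and Rspo3 at -2.77. In OB2 against OB1 14 of 44 passed, 6 higher (beside 10.2% of all genes) and 8 lower (beside 12.9%), with Lgr6 at -4.24 and Tle4 at 0.84. Late against early in OB1 1 of 46 passed, the R-spondin receptor Lgr4, which rose by a log2 of 1.64 (SE 0.33, adjusted p = 0.0305), beside 2.47% of all genes that were higher. In either direction 3.66% of all genes passed, so that count is not above the share of all genes. On the log2 axis of time 11 of 46 passed in OB1, beside the 16.0% of all genes given above.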

How the data were processed

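Single-cell RNA was measured with a 10x Chromium 3′ kit in 6 dorsal skin libraries, 1 per time point. The files deposited by the authors are the filtered Cell Ranger 6.1.2 matrices, which hold UMI counts that were not normalized; per the labels the genome build is mm10, and the treatment of intronic reads is not given in the sources used here. Libraries held 72634390 to 112370376 UMIs in 61031 barcodes. Barcodes with 500 to 7000 genes and at most 10% mitochondrial UMIs were kept (55177), and cells with the largest share of simulated doublets (sums of 2 cells) among their neighbours were removed per library, up to the number that loading predicts (4675 in all), which left 50502 cells.

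Cells were clustered by the Leiden method (leidenalg 0.10.2) on 30 components of 2000 variable genes after integration of the libraries with Seurat 5.3.0, in place of the scaling within each library that had been planned. Members, the wider pathway list, cell cycle genes and mitochondrial genes were kept out (1210 genes). Clusters were named by the highest mean log2 fold change of marker lists that hold no member. Only lists with at least 3 markers raised by a log2 of 0.5 and found in 10% of the cluster's cells could give a name. Of the IFE.B cells, 952 belong to a cluster with a median of 2872 UMIs. Sfrp1, Sostdc1, Wnt10a and Wif1 are among the markers of the study's own clusters, which were not used. The members and lists were chosen with earlier results of these data known.

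UMI counts were summed per cell type and library and tested with edgeR 4.0.16 (TMM, filterByExpr, robust quasi-likelihood F test, Benjamini-Hochberg adjusted p under 0.05 over all genes tested; R 4.3.3), after a check on simulated data. The SE printed beside a log2 difference is its absolute value divided by the square root of the F statistic. It is thus an approximate value that edgeR does not itself report. The tests were a natural spline of hours with 3 degrees of freedom in every type with 20 cells in each library, late (from 2 d) against early libraries, and cell types against each other with the library as a block. Only the spread between libraries, each from 2 mixed mice, enters the p-values, and time points have no replicates, so that no test between 2 single time points was made. Alternatives were DESeq2 1.42.0 and its size factors, other time axes, no count filter, doublets kept, another resolution, no integration, no block, single OB1 clusters and leaving out each library. Members with at least 100 UMIs are named with levels per library in their highest type (libraries with under 20 cells of it left out or named as such), those called in a comparison with its value, and the others by their total. Up to 8 called genes of the wider list with the largest log2 change are named per comparison. Coordinates are those of GENCODE vM21 (GRCm38).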

Additional observations from a re-analysis of the deposited data

Results flagged for a closer look

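Whether the late against early difference itself differed between OB1 and another type was tested with an interaction term in edgeR, chosen after the data had been seen. Of the members tested, 0 of 36 passed against IFE.B (beside 562 of all 13287 genes), 1 of 35 against uHF.B (176 of 12618), 1 of 26 against OB2 (375 of 10216) and 3 of 26 against OB3 (122 of 10582). The 1 member against uHF.B and the 1 against OB2 are near the share of all genes. These 5 results are listed because the effect of time differed between types in that test. The late minus early change of Dkk3 in OB1 less that in OB3 was a log2 of -1.77 (SE 0.26, adjusted p = 6.19e-05), and less that in OB2 -1.83 (SE 0.32, adjusted p = 0.00113), with OB1 levels of 299, 96.9 and 104 CPM up to 16 h and 68.5, 64.1 and 119 CPM from 2 d beside 114, 33.9 and 34.7 CPM up to 16 h and 66.3, 104 and 123 CPM from 2 d in OB3. The difference was -1.19 (SE 0.29, adjusted p = 0.0246) for Wnt10a and -1.57 (SE 0.41, adjusted p = 0.038) for Kremen1, each OB1 less OB3. For Wif1, OB1 less uHF.B, it was -4.43 (SE 0.84, adjusted p = 0.0317), and uHF.B held 0, 0, 1, 12, 2 and 9 UMIs of Wif1 in the order of the time points, so that value rests on few molecules. The 3 clusters of OB1 changed their shares over time, and the part of that shift in these differences was not tested.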

How the results depend on the processing

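Among the members that passed in the late against early and cell type comparisons, none changed direction. The curve fits over time give no direction, so this could not be asked of them. Percentages are the share of all genes tested that passed in the same fit. Over the time course in OB1 the count of members passing was 0 in hours, 10 on the log2 axis (16.0%), 6 on the rank of time (7.30%; Dkk3, Lef1, Sfrp1, Sostdc1, Wnt11 and Wnt5a), 2 with DESeq2 (4.18%) and 3 in the Col14a1 cluster alone (0.864%; Lef1, Sfrp1 and Wif1). Leaving out 1 library gave 0 to 12 in OB1 (12 without 0 h, 19.8%; 8 without 4 h, 8.91%), 0 to 3 in uHF.B (3 without 0 h, 7.47%, namely Apcdd1, Sostdc1 and Wnt6) and 0 in IFE.B. On the log2 axis in OB1 no count filter gave 17 (13.5%), and leaving out 1 library 6 (without 2 d, 10.2%) to 19 (without 6 d, 31.1%). Curve fits without 1 library left fewer than 2 degrees of freedom for the spread, so these counts are weakly founded. For late against early in OB1 the count of 1 (3.66%) became 2 with DESeq2 (9.24%; Sfrp1 and Wnt5a), 4 with no count filter (4.97%; Fzd9, Sfrp1, Wnt11 and Wnt5a), 2 without integration (4.17%; Wnt5a and Wnt6), 3 in the Col14a1 cluster (1.92%; Kremen1, Sfrp1 and Sostdc1) and 0 with doublets kept (3.13%; adjusted p of Wnt5a 0.0595). Leaving out 1 library gave 0 to 3, with 3 without 0 h (7.98%) and 0 without 4 d (0.192%) or 6 d (1.78%). Without the library block 11 members passed in uHF.B against IFE.B (9.30%) and 5 in OB2 against OB1 (5.22%). Leaving out 1 library gave 28 to 31 in OB1 against IFE.B (26.8% to 38.0%), 19 to 22 in uHF.B against IFE.B (26.5% to 40.7%) and 10 to 13 in OB2 against OB1 (15.9% to 23.0%). The causes were not tested. No paired analysis was possible because each time point has 1 library and the replicate numbers pair nothing across them. Counting error limits members with few UMIs, such as Wnt5a in OB1 before 2 d.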
